A study of Sorghum bicolor with 24 samples.

Results

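The vascular parenchyma-high genes of the sorghum stem were 194 of the 34117 genes in a table of estimated read counts from laser-captured stem cell types. They were chosen on CPM values, each count divided by the total of its library and scaled to a common depth of 1e+06 counts. A gene was a member when its vascular parenchyma median was at least 20 CPM and at least 4 times the highest median of the other 4 captured types, and when at least 3 of its 4 vascular parenchyma libraries lay above all 16 libraries of those types. The levels in the 20 captured libraries therefore chose the members and are given as a description. Counts of members called between captured types stand beside those over all genes where these were taken, and support nothing about the members. The 4 whole stem libraries took no part in the choice.

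All groups came from Sorghum bicolor cv. Wray, a bioenergy sorghum grown in a greenhouse under 14-h days, and no treatment was compared. Samples were of the last internode to have finished elongating, phytomer 8, of 4 vegetative plants 74 days old. The groups were vascular parenchyma, xylem sclerenchyma, phloem, pith parenchyma and epidermis, each cut by laser from frozen sections of 20 µm, and whole stem from the same internodes without laser capture, with 4 libraries each. The sample names call the first group vascular parenchyma, while the capture protocol in the labels lists xylem parenchyma among the 5 collected types and no vascular parenchyma. The number of cells in a library is not given in the labels.

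Vascular parenchyma is the living, thin-walled tissue inside the vascular bundles that surrounds the conducting cells. Its cells load and unload water, ions, sugars and amino compounds to and from the xylem vessels and the phloem, and in many plants those next to the xylem also make precursors of lignin for their neighbours. Xylem sclerenchyma, or xylary fibre, is the supporting tissue of the bundle, with thick lignified secondary walls, and phloem carries sugars along the stem.

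The gene reference used here matched 0 of the 34117 identifiers, and the count table gives no names. No role is stated for any gene, no sequence is printed and the label vascular parenchyma was not checked against marker genes. Few identifiers are printed for this reason. CPM values are not scaled by gene length, so a higher CPM in a gene than in another can come from a longer transcript, and levels are compared between groups of libraries within a gene or over the whole set of members.

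Libraries differed in depth and in the number of genes they held. Total counts were 12997022 to 26835924 in vascular parenchyma, 5483186 to 28158378 in xylem sclerenchyma, 2769555 to 30294266 in phloem, 8247350 to 12740916 in pith parenchyma, 9706378 to 38880291 in epidermis and 16189208 to 29605470 in whole stem. Phloem replicate 3 and epidermis replicates 1 and 2 stood apart, with 11021, 10439 and 10911 genes above 1 CPM, against 13378 to 18799 in the other 21 libraries. Without these 3 libraries the same thresholds chose 181 genes, of which 173 were among the 194.

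The members took a larger share of the reads in vascular parenchyma than in any other group. Of all counts in a vascular parenchyma library, 7.61%, 5.99%, 8.00% and 8.95% fell on the 194 genes in replicates 1 to 4. The mean was 7.64% ± 1.23 (SD, n = 4), against 1.23% ± 0.737 in xylem sclerenchyma, 0.762% ± 0.317 in phloem, 0.125% ± 0.0178 in pith parenchyma, 0.131% ± 0.105 in epidermis and 0.70% ± 0.149 in whole stem (SD, n = 4 each). The lowest vascular parenchyma library lay above the highest library of every other group, which for the captured types follows from the way the genes were chosen. The ratio of mean shares was 6.22 over xylem sclerenchyma, 10.03 over phloem, 61.4 over pith parenchyma, 58.5 over epidermis and 10.9 over whole stem.

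**Figure D1:**
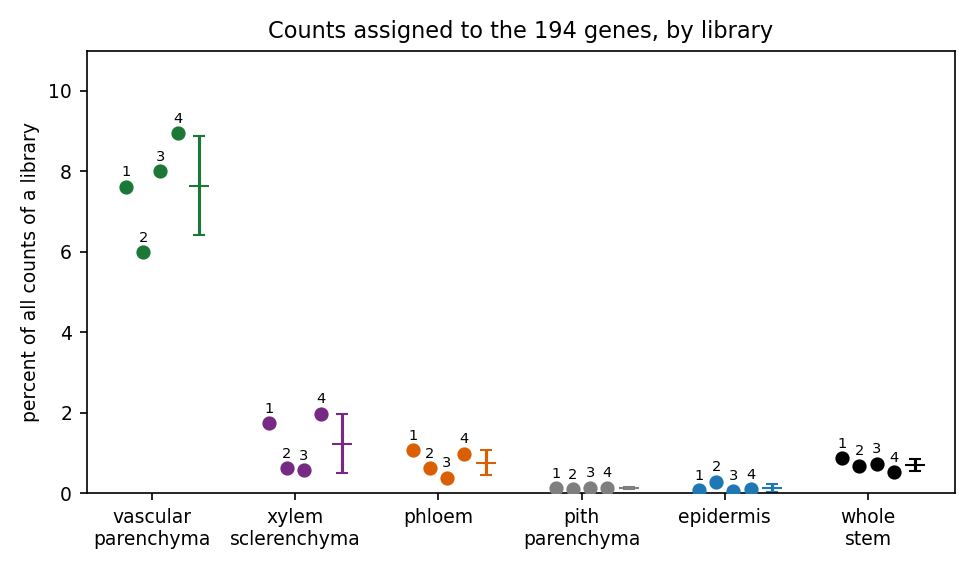
Percent of each library's counts that fell on the 194 genes (vertical axis), by group, with points numbered by replicate and bars giving the mean ± SD of 4 libraries. Vascular parenchyma libraries lay between 5.99% and 8.95%, and xylem sclerenchyma and phloem replicates 1 and 4 lay above their replicates 2 and 3.

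Within vascular parenchyma the set was uneven. Member medians ran from 20.6 to 9983 CPM, with a middle value of 105 CPM and quartiles of 46.4 and 268 CPM. There were 52 members under 50 CPM, 43 from 50 to 100 CPM, 72 from 100 to 500 CPM, 12 from 500 to 1000 CPM and 15 above 1000 CPM. A few genes therefore carried much of the share: the 2 with the most reads held 23.9% of the member counts in vascular parenchyma and the first 10 held 51.9%. Without those 2, the share was 5.81% ± 1.04 in vascular parenchyma, 1.02% ± 0.65 in xylem sclerenchyma, 0.649% ± 0.27 in phloem, 0.11% ± 0.00978 in pith parenchyma, 0.112% ± 0.0692 in epidermis and 0.586% ± 0.137 in whole stem (SD, n = 4 each), in which vascular parenchyma was again the highest group.

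The members also varied between vascular parenchyma replicates. The coefficient of variation over the 4 libraries had a median of 42.4% over the members, with a range of 4.91% to 121%. In 141 members all 4 vascular parenchyma libraries lay above every other captured library, and in 53 members 3 did. The library that failed to do so was replicate 3 in 29 of the 53, replicate 2 in 13, replicate 1 in 9 and replicate 4 in 2. The choice required at least 3 of the 4 libraries, so the counts of 141 and 53 restate it. The like counts over all genes were not taken. Replicate 4 was the highest of the 4 vascular parenchyma libraries in 43.3% of members, against 28.3% of the 7941 genes with a vascular parenchyma median of at least 20 CPM, and replicate 2 was the lowest in 36.6% of members, against 18.0% of those genes. Replicate 4 was also the deepest of these libraries and replicate 2 the shallowest, and whether depth had a part in this was not tested.

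**Figure D2:**
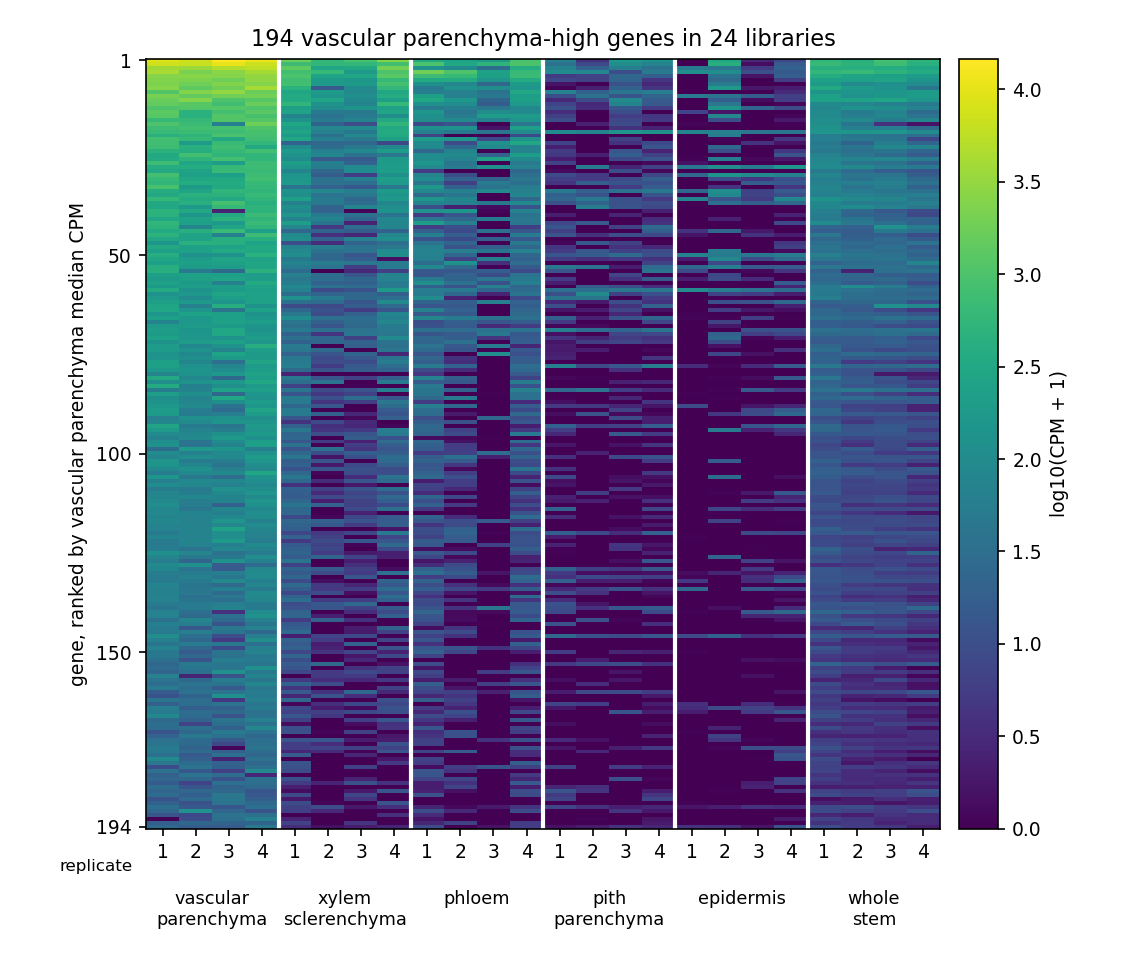
Level of each of the 194 genes (rows, ranked by vascular parenchyma median) in each of the 24 libraries (columns, by group and replicate), as log10(CPM + 1). Vascular parenchyma is filled throughout, xylem sclerenchyma and phloem are partly filled, pith parenchyma and epidermis are mostly near 0, phloem replicate 3 is emptier than the other phloem libraries, and every gene was above 0 in all 4 whole stem libraries.

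Sobic.005G096101 was the member with the most reads. It stood at 8885, 7081, 14683 and 11081 CPM in vascular parenchyma replicates 1 to 4. It stood at 1641, 573, 910 and 2377 CPM in xylem sclerenchyma, the next type, and at 331, 265, 172 and 929 CPM in phloem. All 4 vascular parenchyma libraries lay above all 20 others, and the xylem sclerenchyma and phloem ranges overlapped. Pith parenchyma held 58.5, 2.68, 168 and 124 CPM, epidermis 0, 313, 1.88 and 7.04 CPM, and whole stem 557, 407, 819 and 508 CPM. Every whole stem library lay above every pith parenchyma and epidermis library and within the range of phloem, and 3 of the 4 lay below the lowest xylem sclerenchyma library.

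Sobic.001G458400 was the 1 member whose median was 0 in each of the other 4 captured types, so no ratio to a next type exists for it. It was near the lower limit of the set, at 10.99, 7.002, 37.9 and 33.2 CPM in vascular parenchyma replicates 1 to 4. It had 71 counts over the 4 xylem sclerenchyma libraries, which made 2.58 CPM in replicate 4 and 0 in the other 3, and 6 counts over the phloem libraries, all in replicate 1 at 2.17 CPM. It had 0 counts in all pith parenchyma and epidermis libraries. There 3 counts, the limit used here for a count of 0, would be 0.235 to 0.364 CPM and 0.0772 to 0.309 CPM in a library. In whole stem it stood at 1.79, 1.06, 3.17 and 2.13 CPM, below every vascular parenchyma library.

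The distance to the next type was modest for most members. Leaving out Sobic.001G458400, the ratio of the vascular parenchyma median to the highest other captured median was 4.00 to 691, with a middle value of 6.21 and quartiles of 5.04 and 8.78. It was between 4 and 5 in 46 members, between 5 and 10 in 111 and at least 10 in 36. The largest ratio of 691 came from a median of 26.7 CPM set against 0.0386 CPM in epidermis, a value under the level of 3 counts in any epidermis library, and is a ratio of low counts. Near the limits of the choice, the 3 members with the smallest ratios stood at 4.003, 4.01 and 4.01, and the 3 nearest genes outside at 3.997, 3.99 and 3.98. The 3 members with the lowest medians stood at 20.6, 21.0 and 21.1 CPM, and the 3 nearest genes under the limit at 18.8, 18.4 and 18.1 CPM, so the edge of the set cut through a continuous range.

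The other vascular types were the next highest for nearly all members. Xylem sclerenchyma was next in 116 members, phloem in 64, pith parenchyma in 8 and epidermis in 5. Over the 194 genes, the middle of the group medians was 105 CPM in vascular parenchyma, 12.3 CPM in xylem sclerenchyma, 8.49 CPM in phloem, 0.601 CPM in pith parenchyma, 0 CPM in epidermis and 10.7 CPM in whole stem. Xylem sclerenchyma was higher than phloem in 120 members and lower in 71. Pith parenchyma was higher than epidermis in 100 members, lower in 38 and equal in 56.

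Absence followed the same order. The median was under 1 CPM in 21 members in xylem sclerenchyma, 25 in phloem, 108 in pith parenchyma and 141 in epidermis. No read was counted in any library of the type for 1 member in xylem sclerenchyma, 3 in phloem, 38 in pith parenchyma and 58 in epidermis. The level of members at 0 in a type is bounded by depth, since 3 counts in a library would be 0.107 to 0.547 CPM in xylem sclerenchyma and 0.099 to 1.08 CPM in phloem. Many members were still detected outside the bundle in single libraries: 141 reached 1 CPM in at least 1 pith parenchyma library and 108 in at least 1 epidermis library. The number of members above 0 in a library was 193 to 194 in vascular parenchyma, 150 to 189 in xylem sclerenchyma, 99 to 187 in phloem, 77 to 125 in pith parenchyma, 40 to 106 in epidermis and 194 in every whole stem library. The libraries that stood apart were at the low end, with 99 members above 0 in phloem replicate 3 and 40 in epidermis replicate 1. In phloem replicates 1 to 4 the number was 187, 151, 99 and 177. In xylem sclerenchyma replicates 1 to 4 it was 189, 150, 168 and 164. The shallowest library of each of these types, replicate 1, thus held the most members above 0, and whether depth had a part was not tested. Without phloem replicate 3, 21 members had a phloem median under 1 CPM, and over epidermis replicates 3 and 4 alone 119 had an epidermis median under 1 CPM.

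In 148 members, 76.3%, both the xylem sclerenchyma and the phloem median lay above the pith parenchyma and the epidermis median. The same held for 32.0% of the 7941 genes with a vascular parenchyma median of at least 20 CPM. All of these libraries also took part in choosing the members. The calls below come from the fit over all 20 captured libraries with edgeR's quasi-likelihood test and describe the chosen genes. Calls required a Benjamini-Hochberg adjusted p under 0.05 and a change of 1 or more on the log2 scale, with 19502 genes tested, all 194 members among them. The 4 contrasts of xylem sclerenchyma and phloem with epidermis and pith parenchyma were added after the levels had been seen.

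Against epidermis, 73 of the 194 members were called higher in xylem sclerenchyma, 37.6%, where 3.34% of all genes tested were, and 0 members were called lower. Against pith parenchyma, 26 were called higher in xylem sclerenchyma, 13.4%, beside 1.9% of all genes, and 0 lower. Nothing is read from the 2 shares, since all members had at least 20 CPM in vascular parenchyma and all genes were not so chosen. Single libraries moved these counts, taken on omission as calls in either direction. That against epidermis became 45 without xylem sclerenchyma replicate 1 and 44 without epidermis replicate 3. That against pith parenchyma became 14 and 17 without xylem sclerenchyma replicates 1 and 4. It became 17, 15 and 14 without pith parenchyma replicates 1, 2 and 4, 44 without phloem replicate 3 and 40 without epidermis replicate 2. Over all genes the counts moved too, against epidermis from 1093 to 772 and 663, in the same order. Those against pith parenchyma went from 563 to 324, 396, 317, 458, 265, 771 and 712.

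Phloem gave a like picture. It was called higher than epidermis at 67 members, 34.5%, beside 4.39% of all genes, and higher than pith parenchyma at 26 members, 13.4%, beside 2.72% of all genes, with 0 members called lower in either contrast by edgeR's test. Taken likewise in either direction, the count against epidermis became 40 without epidermis replicate 3. That against pith parenchyma became 17 without vascular parenchyma replicate 3, phloem replicate 1 or pith parenchyma replicate 2. It became 16 without pith parenchyma replicate 4. Over all genes the count against epidermis went from 1675 to 1046. That against pith parenchyma went from 1077 to 961, 645, 828 and 569, in the order given. With RLE size factors the all-gene median of the log2 fold change of phloem over epidermis shifted by 0.148. Called higher in phloem were then 72 members and 968 of all genes, 4.96%. The phloem and xylem sclerenchyma contrasts share the same epidermis and pith parenchyma libraries.

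Vascular parenchyma itself was set against each captured type in the same fit, but these columns chose the members, so the counts restate the choice. It was called higher than epidermis at 138 members, 71.1%, beside 5.52% of all genes, and higher than pith parenchyma at 123 members, 63.4%, beside 4.21% of all genes. Both calls were made for 105 members, and the like count over all genes was not taken. Taken in either direction, the count against pith parenchyma became 78 and 81 without vascular parenchyma replicates 1 and 3. Without pith parenchyma replicates 1 to 4 it became 64, 68, 70 and 60. Over all genes it went from 1398 to 794 and 870, and to 828, 1062, 912 and 690, in the same order.

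Against the neighbouring vascular types few of the chosen genes were called. Vascular parenchyma was called higher than phloem at 5 members, beside 0.0974% of all genes, and higher than xylem sclerenchyma at 0 members, beside 0.00513% of all genes, in edgeR's quasi-likelihood test. At an unadjusted p under 0.05, 110 members and 1002 of all genes, 5.14%, were higher than in phloem, and 63 members and 769 of all genes, 3.94%, were higher than in xylem sclerenchyma. The fold change was above 0 for all 194 in both contrasts, as the choice of members leads to. The number depended on the tool, for members and for all genes. DESeq2 called 40 members and 332 of all genes higher than in phloem, and 17 members and 244 of all genes higher than in xylem sclerenchyma. Limma voom with sample quality weights called 146 members and 691 of all genes against phloem, and 89 members and 351 of all genes against xylem sclerenchyma. The 5 became 3 and 2 without vascular parenchyma replicates 3 and 4, 3, 2 and 2 without phloem replicates 1, 2 and 3, and 8 without epidermis replicate 1. The 0 became 1 without vascular parenchyma replicate 2 or xylem sclerenchyma replicate 4 and 2 without epidermis replicate 1. Of all genes, 7, 4, 21, 3, 6 and 32 were called higher than in phloem in these omissions, in order. Against xylem sclerenchyma 7, 2 and 11 of all genes were. With phloem replicate 3 and epidermis replicates 1 and 2 all left out, 13 members and 45 of all genes were called higher than in phloem, and 8 members and 42 of all genes higher than in xylem sclerenchyma, where the fit of all 20 libraries called 19 and 1 of all genes.

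No member was called higher than all of the other 4 captured types. By that rule 1 of the 19502 genes was called, 0.00513%, and it was no member. DESeq2 called 9 members and 26 of all genes by that rule, and limma voom with quality weights 81 members and 188 of all genes. With an unadjusted p under 0.05 and a fold change of 1 or more on the log2 scale in all 4 contrasts there were 43 members and 119 of all genes, 0.61%. The count of 0 became 1 without vascular parenchyma replicate 2 or xylem sclerenchyma replicate 4, and 2 without epidermis replicate 1. Over all genes these omissions gave 2, 2 and 4. In the main fit 38 members were called in none of the 4 contrasts. The like count over all genes was not taken, so nothing is read from it.

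**Figure D3:**
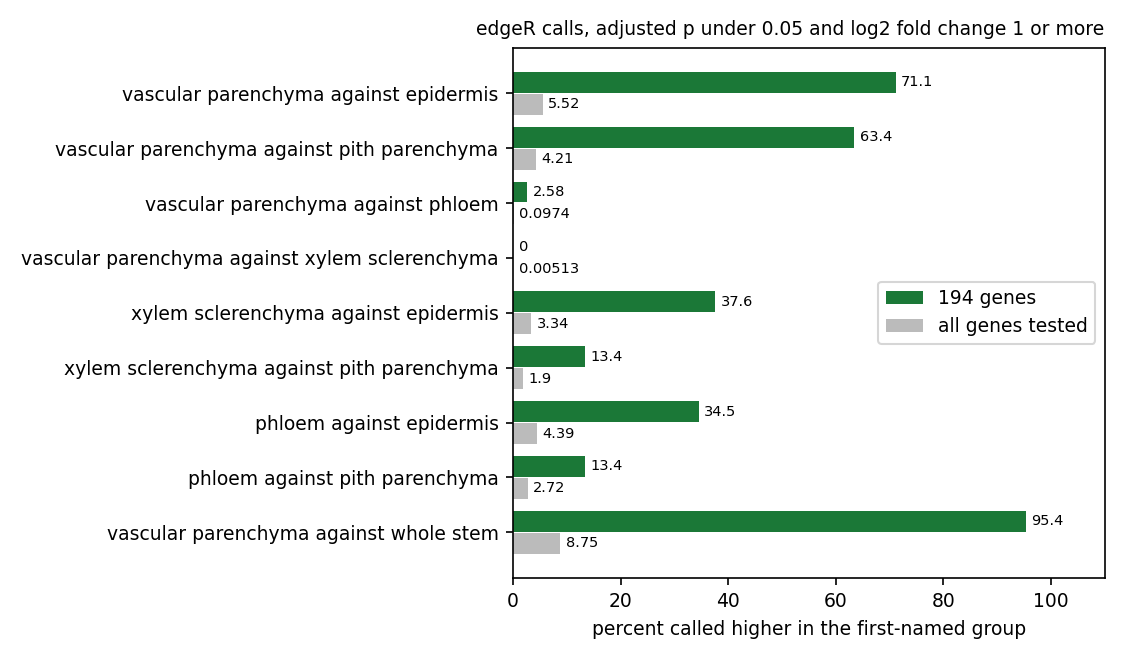
Percent of the 194 genes (green) and of all genes tested (grey) that edgeR called higher in the first-named group, for each contrast. The members' share was 71.1% and 63.4% in vascular parenchyma against epidermis and pith parenchyma, 2.58% and 0% against phloem and xylem sclerenchyma, 13.4% to 37.6% in the contrasts of xylem sclerenchyma and phloem with epidermis and pith parenchyma, and 95.4% in vascular parenchyma against whole stem.

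Of the 5 members called against phloem, the 2 with the highest vascular parenchyma medians are given in full, a choice made after their values were seen. Sobic.007G055700 stood at 3802, 3454, 4890 and 5926 CPM in vascular parenchyma replicates 1 to 4. It stood at 1368, 289, 336 and 2011 CPM in xylem sclerenchyma and at 130, 94.3, 29.3 and 373 CPM in phloem. The vascular parenchyma libraries lay above all others, and xylem sclerenchyma replicates 1 and 4 lay far above replicates 2 and 3. In pith parenchyma it was at 19.7 to 66.0 CPM, in epidermis at 4.30 to 52.7 CPM and in whole stem at 282 to 431 CPM. The log2 fold change of vascular parenchyma over phloem was 5.04 (SE 0.846), and that over xylem sclerenchyma was 2.29 (SE 0.748), given without p since these libraries chose the gene.

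Sobic.007G157500 had the more even levels of the pair. It stood at 2060, 1440, 1815 and 1974 CPM in vascular parenchyma and at 355, 148, 120 and 374 CPM in xylem sclerenchyma. In phloem it stood at 232, 64.0, 46.5 and 210 CPM, and replicates 1 and 4 again lay above 2 and 3 in both of these types. It was at 8.92 to 36.0 CPM in pith parenchyma, at 5.06 to 49.1 CPM in epidermis and at 127 to 234 CPM in whole stem. The log2 fold change of vascular parenchyma was 3.89 over phloem (SE 0.658) and 2.98 over xylem sclerenchyma (SE 0.631), likewise without p.

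**Figure D4:**
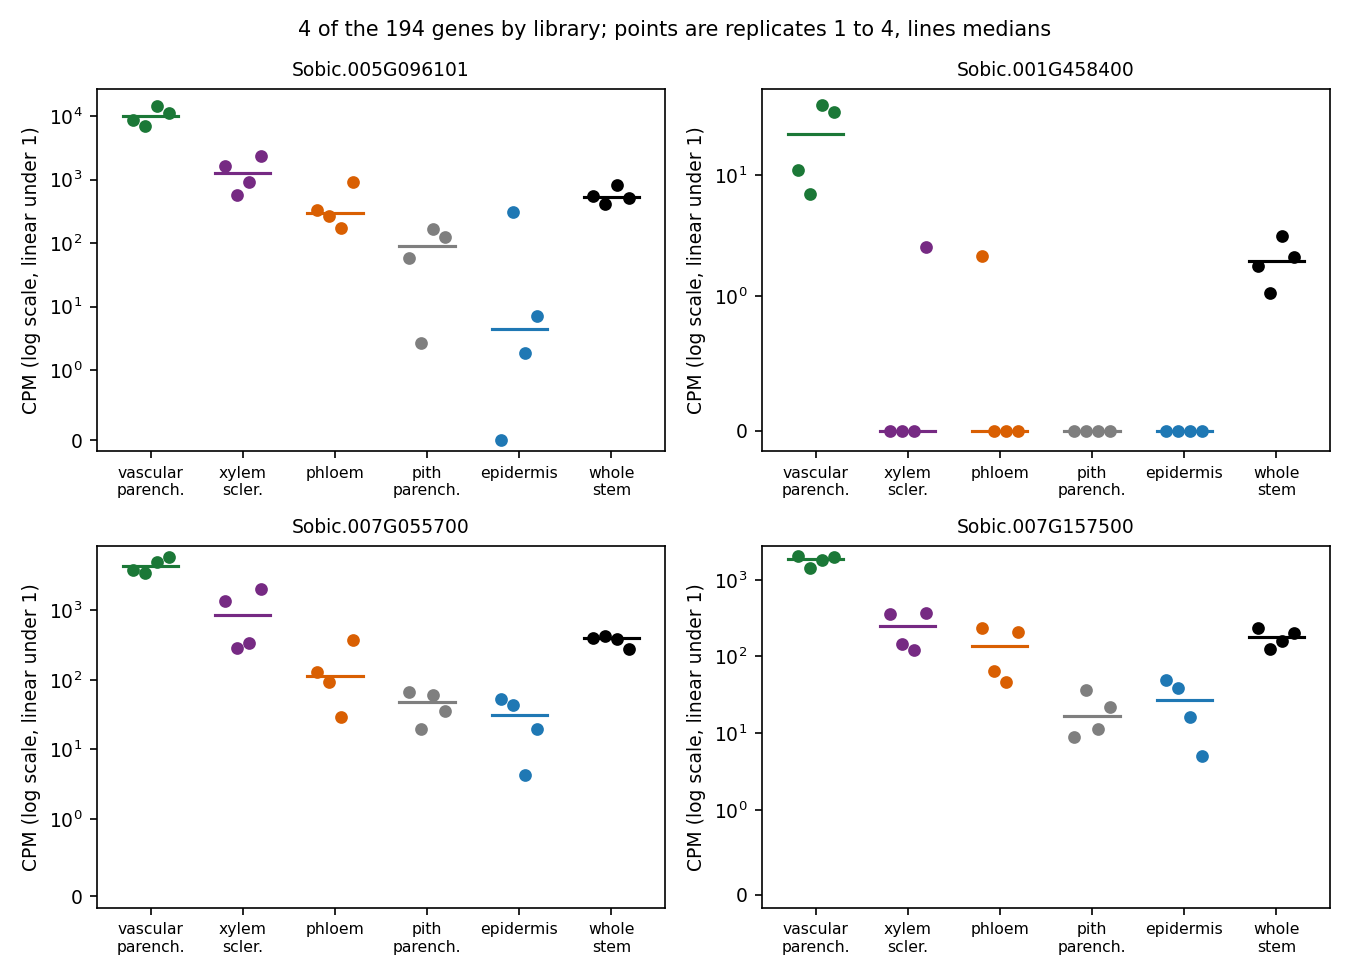
CPM of 4 of the 194 genes in each library (vertical axis, logarithmic above 1 and linear below), by group, with points for replicates 1 to 4 from left to right and a line at the group median. In each gene the 4 vascular parenchyma points lie above those of all other groups, and Sobic.001G458400 is at 0 in all pith parenchyma and epidermis libraries.

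The split seen in these genes also showed in the shares of the whole set and in part of its members. In xylem sclerenchyma, the members took 1.74% and 1.98% of the counts in replicates 1 and 4, and 0.615% and 0.575% in replicates 2 and 3. Replicates 1 and 4 both lay above 2 and 3 in 115 members, 59.3%, against 31.1% of the 7941 genes with a vascular parenchyma median of at least 20 CPM. In phloem the share was 1.06% and 0.984% in replicates 1 and 4, and 0.617% and 0.385% in replicates 2 and 3, and the same order held in 86 members, 44.3%, against 21.8% of those genes. The ratio to the next type rests on medians of libraries that differ among themselves. In both types replicates 1 and 2 were the shallow libraries and 3 and 4 the deep ones, and whether depth had a part in the split was not tested. Deviations of same-numbered xylem sclerenchyma and phloem libraries correlated at 0.139, 0.0468, 0.0481 and 0.00799 in replicates 1 to 4. Each correlated best with its own number. Vascular parenchyma did so with xylem sclerenchyma in replicates 1, 3 and 4, not 2. With phloem it did so in replicates 1 and 3, not 2 and 4. Whether the numbers mark the same plant in these types was not tested.

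Whole stem, which played no part in choosing the genes, contained every member at a lower level. All 194 were above 0 in all 4 whole stem libraries, and 193 had a whole stem median of at least 1 CPM. The whole stem median was 1.56% to 33.1% of the vascular parenchyma median, with a middle value of 9.34% and quartiles of 6.69% and 13.1%. It was at most 10% in 109 members and at most 20% in 179. Over the 7941 genes with a vascular parenchyma median of at least 20 CPM the middle value was 98.3%. Whole stem was the higher in 48.9% of them, against 0 of the members. The percentages divide by vascular parenchyma medians, which chose the members, so low values were in part built in. The 7941 genes met only the limit of 20 CPM. In bulk tissue, fewer cells of a type and less RNA per cell cannot be told apart.

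**Figure D5:**
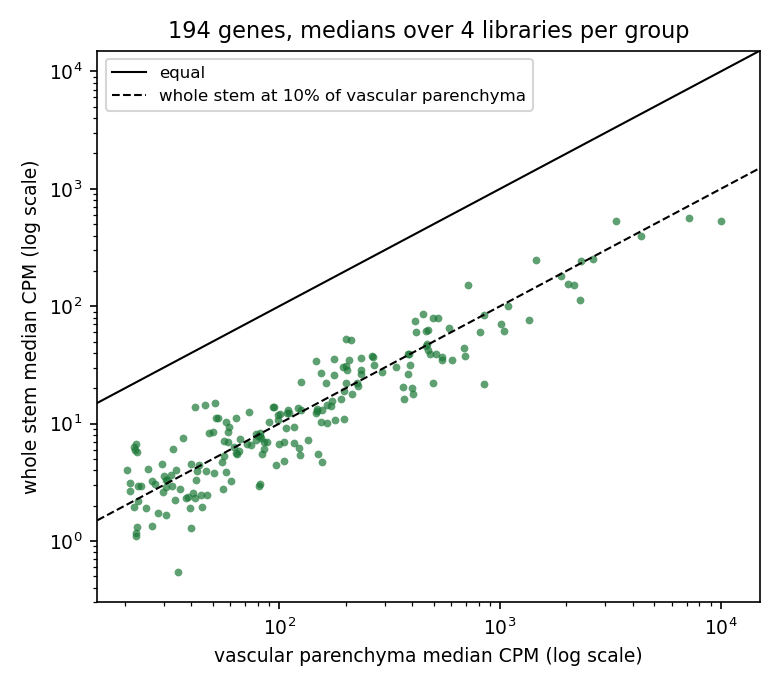
Whole stem median CPM (vertical axis) against vascular parenchyma median CPM (horizontal axis) for the 194 genes, both logarithmic, with lines at equality and at 10%. All points lie under the line of equality and most lie near the 10% line, from 1.56% to 33.1%.

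In the fit of the 4 vascular parenchyma and 4 whole stem libraries, 185 of the 194 members were called higher in vascular parenchyma, 95.4%, beside 8.75% of the 19841 genes tested, by edgeR's quasi-likelihood test. None was called lower. The median log2 fold change of the members was 3.62, with quartiles of 3.12 and 4.03 and a range of 1.60 to 4.89, while that of all genes tested was -0.132. The vascular parenchyma libraries in this contrast are those that chose the members, so high values there were built in and only the whole stem side is free of the choice. Whole stem was also the only group made without laser capture, so the tissue and the capture procedure cannot be told apart in this contrast. In 1 fit over all 24 libraries, which used the spread of the captured types for whole stem too, 12 members and 148 of all genes were called higher in vascular parenchyma.

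Both members named first were called higher in vascular parenchyma in this contrast. No p is given, since its vascular parenchyma libraries chose the genes. Sobic.005G096101 averaged 10432 ± 3272 CPM in vascular parenchyma and 573 ± 176 CPM in whole stem (SD, n = 4 each). Its log2 fold change was 4.39 (SE 0.355). Sobic.001G458400 averaged 22.3 ± 15.5 CPM in vascular parenchyma and 2.04 ± 0.878 CPM in whole stem (SD, n = 4 each). Its log2 fold change was 3.66 (SE 0.746). In both, every vascular parenchyma library lay above every whole stem library. In the fit over all 24 libraries neither was called.

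Set against the other captured types, whole stem levels of the members were in between. The whole stem median lay above all of the other 4 captured medians in 48 members, between the lowest and the highest in 145 and below all 4 in 1. It was above the epidermis median in 188 members, the pith parenchyma median in 190, the phloem median in 121 and the xylem sclerenchyma median in 69. Whole stem thus stood nearer to phloem and xylem sclerenchyma than to pith parenchyma and epidermis for these genes. Across the members, whole stem and vascular parenchyma medians had a Spearman rho of 0.909, a description over 194 genes that share the same 8 libraries and the same transcript lengths on both axes.

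The members also differed in level between whole stem libraries. They took 0.876%, 0.679%, 0.731% and 0.515% of the counts in replicates 1 to 4. Replicate 1 was the highest of the 4 in 66.0% of members, against 37.2% of the 7941 genes with a vascular parenchyma median of at least 20 CPM, and replicate 4 the lowest in 66.5%, against 48.6%. Replicate 1 was the shallowest whole stem library and replicate 4 the deepest, and whether depth had a part was not tested.

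Further properties of the members that the choice did not use came from the identifiers and the counts. In sorghum identifiers of this form the first digits give the chromosome. By these digits, 22.2% of members and 16.8% of all genes were on chromosome 1, 17.0% and 13.7% on chromosome 3, 12.9% and 11.1% on chromosome 4, 10.3% and 12.9% on chromosome 2, and 4.64% and 7.88% on chromosome 9, and no member lay among the 100 genes with no chromosome digits. There were 7 pairs of members that were neighbours in the table, 14 members in all, and no longer run. Of these pairs, 3 were on chromosome 1, 2 on chromosome 6 and 1 each on chromosomes 8 and 9. The pair with the most reads, on chromosome 9, had vascular parenchyma medians of 7199 and 606 CPM, and phloem was the next type for both, at 744 and 113 CPM.

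Reads shared between near copies touch some members. At least 1 of the 24 values was not a whole number, within 1e-06, in 70 members, 36.1%, against 29.2% of all genes above 0. The latter include genes of few reads, while members had at least 20 CPM in vascular parenchyma. Whether level had a part in the difference was not tested. Salmon gives such values where a read fits several genes. In 4 of the 7 pairs at least 1 neighbour had such a value, and in 1 of these 4 the other neighbour did not. The genes that shared these reads are not given, so whether the levels of neighbours are separate was not tested.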

How the data were processed

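RNA of 5 laser-captured stem cell types and of whole stem was sequenced as single-end reads of 150 bp from full-length cDNA amplified with a SMART-Seq kit, per the labels' protocols. The authors deposited estimated counts per gene, made with Salmon per the submitters' processing notes, with no normalization, in 24 library columns. FastQC and alevin are named in the same notes. The sources used here give no versions, transcript index or genome build. No molecular identifiers are named, so limits from a count of 0 cover counting error only. Replicates came from 4 plants, per the labels.

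CPM used column totals. For tests, expected counts were rounded and fitted in R 4.3.3 with edgeR 4.0.16 (filterByExpr, TMM, robust quasi-likelihood F tests, Benjamini-Hochberg over all genes tested), as 1 fit over the 20 captured libraries and 1 over vascular parenchyma and whole stem. The standard error was the log2 fold change divided by the square root of F. Scripts were tested on simulated data. DESeq2 1.42.0 and limma 3.58.1 were alternatives, as were other size factors, filters, thresholds and omissions of libraries. Members and tests were chosen with earlier results of these data known.

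The rule for named genes allowed 2 identifiers where names could not be matched: the member with the highest vascular parenchyma median and the one with the largest ratio to the next type, for which a member with all 4 other medians at 0 was ranked first. Another 2 identifiers were added after their values were seen. Planned descriptions by product name, protein length and promoter motif were not run, because the reference matched 0 identifiers, also with the prefix rewritten.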

Additional observations from a re-analysis of the deposited data

Results flagged for a closer look

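Among 36 sets of 4 libraries screened, 4 held a library far from the other 3 by Dixon's ratio. Chance flags about 1 set in 20 where values are continuous, but in 3 of the 4 the other 3 libraries were tied, so that any difference gave the highest ratio and this rate does not apply to them. Sobic.005G096101 was at 313 CPM in epidermis replicate 2, against 0 to 7.04 CPM in the other epidermis libraries. That library also gave the members the largest share of counts in epidermis, 0.285%, against 0.0591% to 0.105%. Sobic.001G458400 was at 2.58 CPM in xylem sclerenchyma replicate 4 and at 2.17 CPM in phloem replicate 1, with 0 in the other 3 libraries of each type. Vascular parenchyma replicate 1 had 193 members above 0, against 194 in each of the other 3.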

How the results depend on the processing

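The rule gave 194 members and 103 with a ratio of at least 6. Omitting 1 captured library gave 149 to 305 members, before the limit of 300; the highest, without vascular parenchyma replicate 2, included 189 of the 194, and 110 members were chosen in all 20 omissions. TMM-scaled CPM gave 219 members, with all 194 among them. Member and all-gene counts below are calls in either direction, and those above each type are higher calls. DESeq2 called 40 members in vascular parenchyma against phloem and 17 against xylem sclerenchyma. It called 116 and 92 in xylem sclerenchyma against epidermis and pith parenchyma, and 109 and 79 in phloem against these. It called 9 members higher in vascular parenchyma than in each other captured type. Of 19502 genes tested DESeq2 called 661, 714, 2721, 2076, 3446 and 2790 in these contrasts, in order, and 26 above each type. The main fit called 34, 6, 1093, 563, 1675 and 1077 of them, and 1 above each type. Limma voom with quality weights called 146 and 89 members in vascular parenchyma against phloem and xylem sclerenchyma. It called 69 and 78 in xylem sclerenchyma and phloem against pith parenchyma, and 81 above each type. Over all genes voom called 1304, 700, 2328 and 4185 in these contrasts, in order, and 188 above each type. Fitting all 24 libraries together gave 12 members in vascular parenchyma against whole stem and 4 against xylem sclerenchyma. It gave 54 and 50 in xylem sclerenchyma and phloem against pith parenchyma, and 3 above each type. Of 20592 genes tested, that fit called 646, 137, 1217 and 2018 in these contrasts, in order, and 6 above each type. Epidermis replicates 1 and 2 and phloem replicate 3 were also left out together, a choice made after seeing the data. This gave 13 and 8 members in vascular parenchyma against phloem and xylem sclerenchyma. In xylem sclerenchyma and phloem against pith parenchyma it gave 76 and 66, and above each type 6. Of 21340 genes then tested, 66, 127, 1358 and 1613 were called in these contrasts, in order, and 13 above each type. The cause of these shifts was not tested. Omitting 1 library gave 110 to 148 members in vascular parenchyma against epidermis, 60 to 143 against pith parenchyma and 2 to 8 against phloem. It gave 0 to 2 against xylem sclerenchyma, 167 to 187 against whole stem and 0 to 2 above each type. All genes called were, in the same order, 1331 to 2349, 690 to 1717, 4 to 52, 0 to 69, 2929 to 5390 and 0 to 4. In xylem sclerenchyma against epidermis and pith parenchyma, omissions gave 44 to 85 and 14 to 44 members. In phloem against these they gave 40 to 88 and 16 to 38. All genes called there were 663 to 1372, 265 to 780, 1046 to 1695 and 569 to 1305. The middle whole stem level was 9.23 to 10.9 CPM.

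The labels do not tie replicate numbers to plants, and deviations of same-numbered libraries correlated above 0.1 in 7 of 60 pairs of groups and numbers, so the numbers were not taken to pair the libraries. With a replicate block, calls over members (all genes) in vascular parenchyma were 134 (1756) against epidermis and 109 (1199) against pith parenchyma. They were 4 (46) against phloem, 0 (6) against xylem sclerenchyma, 149 (1177, without block 3899) against whole stem and 0 (1) above each type. In xylem sclerenchyma against epidermis and pith parenchyma they were 53 (866) and 23 (473), and in phloem 53 (1446) and 23 (909). A library correlated best with its own number in 20 of the 60, more often between vascular types. A count of 0 bounds a level least tightly in phloem replicates 1 and 2.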
